A study of Mus musculus with 2 samples.

Results

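NKp46 and the NKR-P1 receptors are surface proteins by which natural killer (NK) cells read other cells, and 5 mouse genes that encode them are described here: Ncr1, Klrb1a, Klrb1b, Klrb1c and Klrb1f. They were taken by symbol from the gene lists of both deposited matrices, 5 of 53715 genes, and 4 of the 5 had a UMI in each library, while Klrb1b had 0 in both. The cells came from tumours of CT26, a mouse colon carcinoma line, that by the labels lack B2m, the small chain that MHC class I needs at the cell surface, and they were sorted as CD45.2+ CD3- NKp46+. One library held NK cells from tumours given IL-15SA and the other held NK cells from tumours given IL-15SA together with IL-21Fc, here called the combination library. No untreated library, dose, time point, host strain, sex or age is given in the sources used here. By the labels, NK cells were pooled by treatment ahead of the microwell step. Each group thus had 1 library, the treatment and the library cannot be told apart, no test was possible, and all 95% intervals cover counting error only.

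NKp46, the product of Ncr1, is an activating receptor that signals through the adaptors encoded by Fcer1g and Cd247 and marks NK cells and type 1 innate lymphoid cells (ILC1). The NKR-P1 proteins are C-type lectin-like receptors encoded next to one another in the NK gene complex, and their known ligands are the Clr proteins, encoded by Clec2 genes of the same region. NKR-P1C, the product of Klrb1c, is the NK1.1 antigen of some mouse strains and activates the cell through the Fcer1g adaptor, NKR-P1F (Klrb1f) binds Clr-g (Clec2i), NKR-P1A (Klrb1a) is grouped with the activating receptors, and NKR-P1B (Klrb1b) is inhibitory and binds Clr-b (Clec2d). The sort selected cells by NKp46 protein, so the presence of Ncr1 transcript in these cells is set by the gate and is no finding. The part of the gate in the spread of Ncr1 over clusters and in its ratio between libraries was not tested.

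On the mouse build mm10, with the gene models of GENCODE M21, Ncr1 lies on chromosome 7 at 4337724 to 4345164, plus strand. The 4 NKR-P1 genes lie on chromosome 6: Klrb1a at 128609227 to 128623533, Klrb1c at 128778485 to 128789215 and Klrb1b at 128813706 to 128826331 on the minus strand, and Klrb1f at 129045901 to 129057464 on the plus strand. The stretches just upstream of the start sites are printed for the 4 genes with UMIs, and whether they bear on the levels was not tested. The start sites are those of RefSeq, which for Klrb1a and Klrb1c lie 599 and 574 bases downstream of the GENCODE gene starts, so that both windows fall inside the spans just given. They are from RefSeq (GRCm38.p6), 5′ to 3′ on each gene's strand: chr7:4337474-4337723 for Ncr1, chr6:128622935-128623184 for Klrb1a, chr6:128788642-128788886 for Klrb1c, shortened to 245 bases to leave out an annotated exon, and chr6:129045651-129045900 for Klrb1f. Capitals mark the letters TGTGGT, a core of sites bound by RUNX factors, or their reverse complement ACCACA.
Ncr1: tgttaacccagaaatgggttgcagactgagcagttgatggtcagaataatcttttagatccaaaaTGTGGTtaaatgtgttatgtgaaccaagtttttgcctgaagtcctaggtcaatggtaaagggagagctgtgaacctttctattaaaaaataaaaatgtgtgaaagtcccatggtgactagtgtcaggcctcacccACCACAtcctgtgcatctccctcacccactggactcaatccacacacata
Klrb1a: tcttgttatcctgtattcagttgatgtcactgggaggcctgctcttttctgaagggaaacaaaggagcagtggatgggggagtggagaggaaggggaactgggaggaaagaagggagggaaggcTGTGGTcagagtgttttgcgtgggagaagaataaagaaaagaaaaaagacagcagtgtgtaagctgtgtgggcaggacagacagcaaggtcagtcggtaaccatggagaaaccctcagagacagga
Klrb1c: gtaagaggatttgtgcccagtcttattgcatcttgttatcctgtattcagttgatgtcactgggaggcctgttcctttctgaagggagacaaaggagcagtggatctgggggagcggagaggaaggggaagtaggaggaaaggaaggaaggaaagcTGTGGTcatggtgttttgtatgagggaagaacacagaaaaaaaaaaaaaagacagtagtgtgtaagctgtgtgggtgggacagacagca
Klrb1f: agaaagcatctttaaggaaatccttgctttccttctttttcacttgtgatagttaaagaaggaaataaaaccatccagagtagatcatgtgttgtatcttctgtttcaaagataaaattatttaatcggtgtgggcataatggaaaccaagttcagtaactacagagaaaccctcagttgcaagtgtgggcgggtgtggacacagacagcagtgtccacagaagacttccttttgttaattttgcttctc
The RUNX letters occurred 2 times upstream of Ncr1, with first bases 185 and 50 bases before the start, 1 time in Klrb1a at 126 bases and 1 time in Klrb1c at 89 bases, and at no place in the windows of Klrb1f and Klrb1b. In 32851 windows of 250 bases over all genes of the table, 14.0% held them on either strand. The letters AGGTGT or ACACCT, a core of T-box sites, were in 0 of the windows of the 5 genes and in 11.8% of all windows. Aligned over their 250-base windows, Klrb1a and Klrb1c were 64.8% identical and Klrb1b and Klrb1f 58.0%, while the other 4 NKR-P1 pairs were 45.7% to 48.8% identical. The Ncr1 window of a RefSeq start 9 bases further upstream was 46.4% to 52.6% identical to the 4 NKR-P1 windows. Those 4 other pairs thus stood no higher than pairs with Ncr1, which is outside the family. These matches describe letters and say nothing of binding.

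There were 8386 barcodes with 30893388 UMIs for IL-15SA and 12435 with 35336180 UMIs for the combination, and 60 barcode sequences occurred in both. After removal of doublets 7967 and 11808 cells were clustered into 7 clusters without use of Ncr1 or of any Klrb1 or Clec2 gene. Cluster 4 was led by Saa3, Dcn and Col1a2, held 11 tumour or stroma markers at over 5 times their median, and is called tumour or stroma-like. It made up 7.09% (6.54% to 7.68%) and 11.4% (10.8% to 11.98%) of the cells. The other 6 clusters form the NK compartment, with 7402 and 10463 cells and a median of 3111.5 and 2372 UMIs per cell. Of these, cluster 1 was led by Ccl5 and the Ly49 receptor genes Klra7 and Klra1, cluster 2 by Cd74, Krt83 and Cxcr6, cluster 3 by the mitosis and DNA synthesis genes Nusap1, Esco2 and Rrm2, cluster 5 by the granzyme genes Gzmg, Gzmf and Gzmd, and cluster 6 by the interferon-induced genes Slfn5, Ifit2 and Mx1. In cluster 2 the median ratio of ILC1 markers to their level over clusters was 2.59 and that of MHC class II genes 8.06. That of immature NK markers was 1.90. Clusters 1, 2, 3, 5 and 6 held 3170, 1173, 1817, 955 and 235 cells with IL-15SA. With the combination they held 4335, 2682, 1992, 742 and 659. Ratios over the NK compartment mix this difference in make-up with differences within clusters. Cluster 7 held 52 and 53 cells and is left out of the cluster profiles. In the NK compartment 9 of 9 T cell markers had UMIs and together reached 1477 and 1626 counts per 1000000 UMIs (CPM), and the myeloid markers reached 59.6 and 77.7. The 14 tumour or stroma markers together reached 4374 and 4112 CPM. Their part in the results below was not tested.

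Klrb1c and Klrb1f were higher in the combination library, in the NK compartment as a whole and in each of the 5 profiled clusters, whereas Ncr1 and Klrb1a stood close to equal and went both ways over the clusters. Levels are CPM, UMIs of a gene per 1000000 UMIs of the cells in question, so they compare 1 gene between cells and are not used to rank the genes against one another. Fewer cells with a transcript and less transcript per cell cannot be told apart from a summed level.

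Klrb1f was counted 4659 times in the NK compartment of the IL-15SA library and 7106 times in that of the combination library. Its level was 170 CPM (165 to 175) with IL-15SA and 243 (238 to 249) with the combination. These intervals do not overlap, and the ratio was 1.43 (1.38 to 1.48). Klrb1c stood at 167 CPM (162 to 172) with IL-15SA and at 220 (215 to 225) with the combination, a ratio of 1.32 (1.27 to 1.37). Klrb1a stood at 67.4 (64.4 to 70.6) and 77.0 (73.9 to 80.3), a ratio of 1.14 (1.07 to 1.22), and Ncr1 at 1474 (1460 to 1489) and 1568 (1553 to 1582), a ratio of 1.06 (1.05 to 1.08). Of the 4 genes with UMIs, Klrb1c and Klrb1f thus passed a log2 ratio of 0.32, and 0 of the 4 passed the same size downward. Over the 5425 genes at 20 CPM or more in either library, 5.88% passed it upward and 4.04% downward. At 1.5-fold, 0 of the 4 passed in either direction, against 1.46% of genes upward and 0.461% downward. The median log2 ratio of those 5425 genes was -0.019.

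The small differences of Ncr1 and Klrb1a changed direction with the choice of cells. Over all barcodes as deposited the ratio of Ncr1 was 0.998 (0.985 to 1.01) and that of Klrb1a 1.08 (1.01 to 1.14), while those of Klrb1c and Klrb1f were 1.23 (1.19 to 1.28) and 1.33 (1.28 to 1.38). Cells of the combination library were shallower. In a subset of 6578 cells per library chosen to have like UMI totals, the log2 ratio of Klrb1a went from 0.19 to -0.07 and that of Ncr1 from 0.09 to 0.01. In the same matched cells the log2 ratio of Klrb1c went from 0.40 to 0.21 and that of Klrb1f from 0.52 to 0.40. Klrb1c thus lost the log2 ratio of 0.32 in the matched cells and, at 0.30, over all barcodes, while Klrb1f kept it. Shares of all genes past that size were not counted in those cells.

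**Figure D1:**
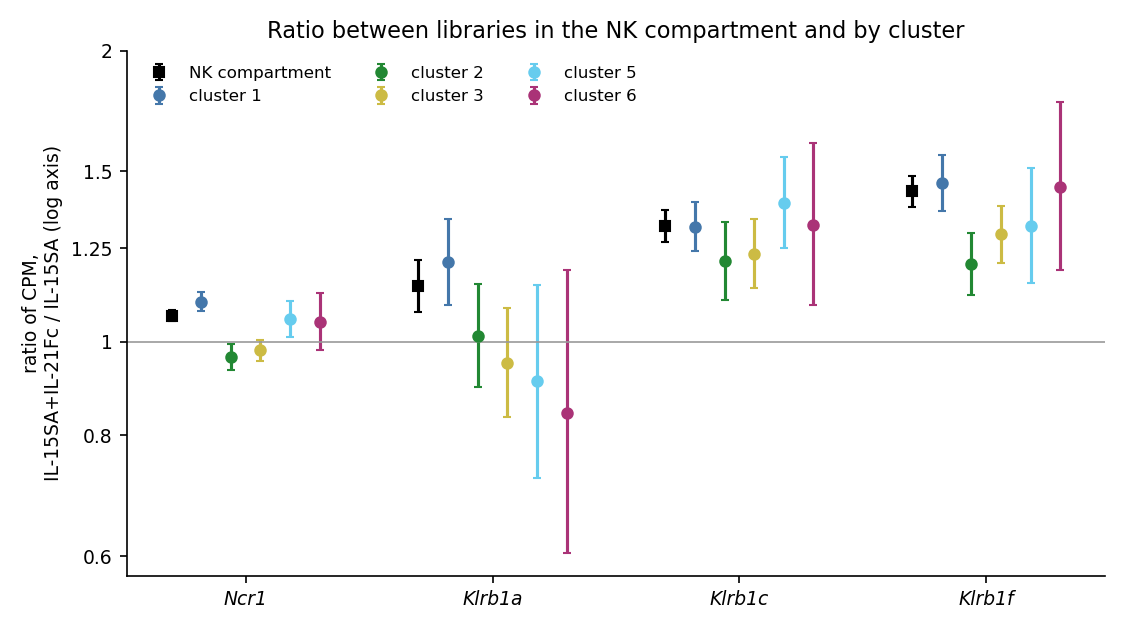
Ratio of CPM, combination over IL-15SA, on a log axis for 4 genes in the NK compartment (black squares) and in 5 clusters (coloured points), with 95% intervals that cover counting error only. Each of the 5 cluster points lies above 1 for Klrb1c (1.21 to 1.39) and for Klrb1f (1.20 to 1.46), and the points lie on both sides of 1 for Ncr1 and Klrb1a.

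By cluster, the ratio of Klrb1f was 1.46 (1.36 to 1.56) in the Ly49 cluster 1, 1.20 (1.12 to 1.30) in the ILC1-marker cluster 2, 1.29 (1.21 to 1.38) in the cycling cluster 3, 1.32 (1.15 to 1.51) in the granzyme cluster 5 and 1.44 (1.19 to 1.77) in the interferon cluster 6. Each of these intervals lay above 1. The ratio of Klrb1c was 1.31 (1.24 to 1.39), 1.21 (1.10 to 1.33), 1.23 (1.14 to 1.34), 1.39 (1.249 to 1.55) and 1.32 (1.09 to 1.60) in the same order, again above 1 throughout. For Klrb1a only the interval of cluster 1 lay apart from 1, at 1.21 (1.09 to 1.34), and the lowest value was 0.843 (0.604 to 1.19) in cluster 6. Ncr1 was higher with the combination in cluster 1, at 1.10 (1.07 to 1.12), and in cluster 5, at 1.05 (1.01 to 1.10), and lower in cluster 2, at 0.963 (0.935 to 0.993). The difference between clusters in these ratios was not tested. With the 5 clusters weighted equally, the log2 ratio was 0.42 for Klrb1f, 0.37 for Klrb1c, 0.04 for Ncr1 and -0.03 for Klrb1a.

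In both libraries, the cluster with ILC1 markers, cluster 2, held the highest level of Ncr1, Klrb1a and Klrb1f, while Klrb1c followed another order and was lowest in the cycling cluster 3. Klrb1f stood at 301 (283 to 320) and 362 (347 to 378) CPM in cluster 2 of the IL-15SA and combination libraries. Cluster 6 followed with 179 and 258, then the cycling cluster 3 with 171 and 220, the Ly49 cluster 1 with 147 and 214, and the granzyme cluster 5 with 111 (101 to 122) and 147 (132 to 162). The order from cluster 5 to cluster 2 was the same in both libraries, and the highest level was 2.71 and 2.47 times the lowest. Neighbours whose ratio had an interval that included 1 were clusters 3 and 6 with IL-15SA and clusters 1 and 3 with the combination.

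Klrb1a stood at 116 (105 to 128) and 117 (109 to 126) CPM in cluster 2 and at 51.2 (44.5 to 58.6) and 46.6 (38.7 to 55.7) in cluster 5, a spread of 2.26-fold and 2.52-fold. It stood at 68.4 and 82.7 in the Ly49 cluster 1, 76.0 and 64.1 in the interferon cluster 6, and 55.0 and 52.3 in the cycling cluster 3. Clusters 3 and 5 did not separate in either library. Ncr1 varied less, from 1299 (1264 to 1334) in cluster 5 to 1889 (1843 to 1935) in cluster 2 with IL-15SA, 1.45-fold, and from 1366 (1341 to 1391) in cluster 3 to 1820 (1786 to 1854) in cluster 2 with the combination, 1.33-fold. Clusters 1 and 6 lay between, at 1464 and 1647 with IL-15SA and at 1610 and 1727 with the combination.

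Klrb1c stood at 118 (111 to 125) and 146 (138 to 154) CPM in the cycling cluster 3, below each of the other 4 clusters. Those 4 lay close together, with IL-15SA at 172 in the granzyme cluster 5, 189 in the ILC1-marker cluster 2, 196 in the interferon cluster 6 and 201 in the Ly49 cluster 1. With the combination the same clusters were at 240, 229, 259 and 265. No neighbouring pair among the 4 was separated in either library, although the lowest of the 4 lay below cluster 1, at 172 (160 to 185) against 201 (192 to 210) with IL-15SA and at 229 (217 to 242) against 265 (255 to 275) with the combination. The highest level was 1.70 and 1.82 times that of cluster 3.

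**Figure D2:**
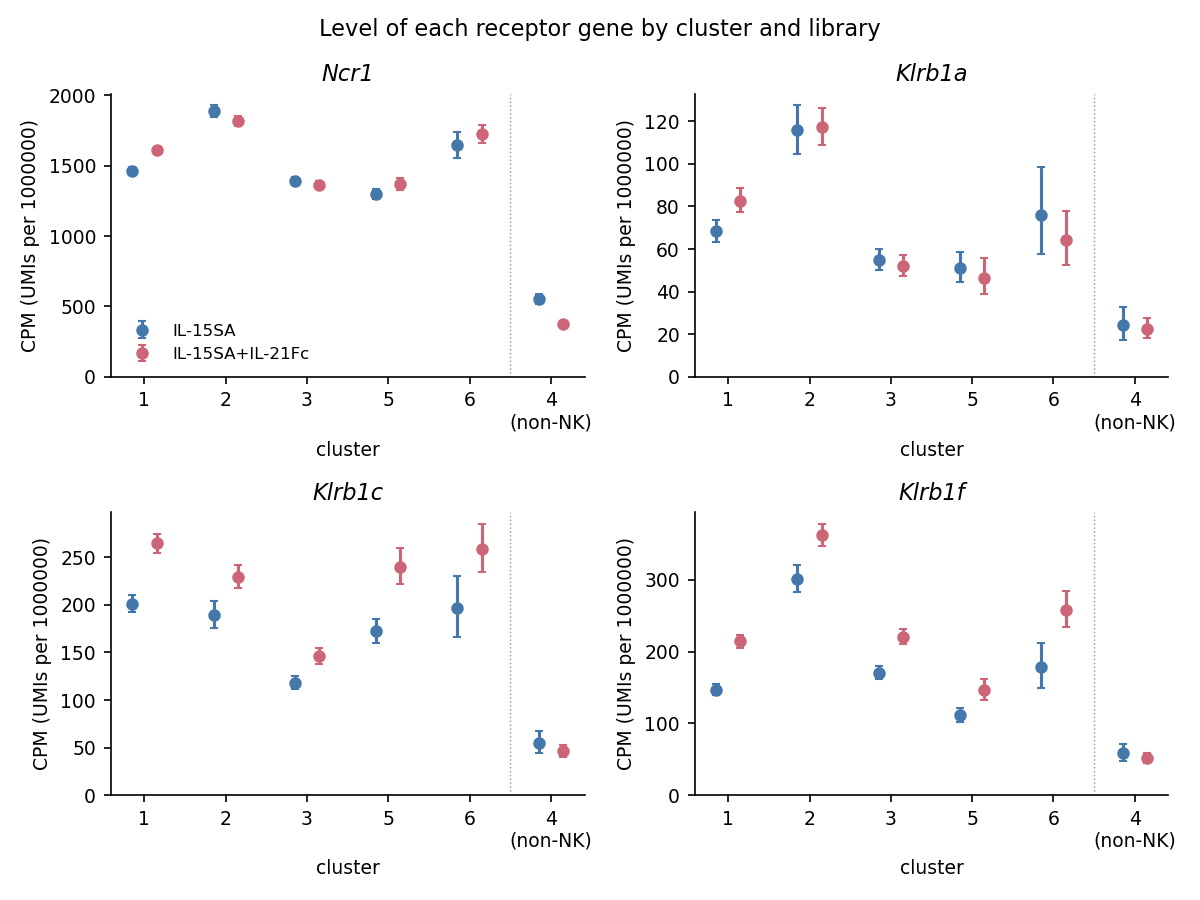
CPM of Ncr1, Klrb1a, Klrb1c and Klrb1f in clusters 1, 2, 3, 5 and 6 and, right of the dotted line, in the tumour or stroma-like cluster 4, for the IL-15SA library (blue) and the combination library (red), with 95% Poisson intervals. Ncr1, Klrb1a and Klrb1f are highest in cluster 2, Klrb1c is lowest of the 5 NK clusters in cluster 3, and all 4 are lowest in cluster 4.

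Set against the other NK clusters of the same library, 2 of the 4 genes were at least 1.5-fold higher in cluster 2 in both libraries: Klrb1f by 1.99-fold and 1.71-fold and Klrb1a by 1.90-fold and 1.76-fold. Among all genes 6.08% and 3.5% were. None of the 4 was 1.5-fold lower there, as 4.84% and 5.06% of genes were. In cluster 3, Klrb1c was 1.62-fold and 1.71-fold lower, and with the combination Klrb1a was 1.65-fold lower, which makes 1 of 4 and 2 of 4 genes at least 1.5-fold lower against 1.71% and 3.35% of all genes. In cluster 5, Klrb1f was 1.62-fold and 1.72-fold lower and with the combination Klrb1a 1.70-fold lower, again 1 and 2 of 4 genes, against 7.63% and 8.72% of all genes. In the upward direction 0 of 4 passed in these 2 clusters, against 10.4% and 11.8% of genes in cluster 3 and 1.94% and 2.7% in cluster 5. In clusters 1 and 6, 0 of 4 passed in either direction. For cluster 1 the shares of all genes were 0.334% and 0.53% higher and 5.74% and 5.97% lower, and for cluster 6 they were 7.16% and 4.39% higher and 11.1% and 7.08% lower.

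The clusters are one division of the cells among several. At a finer division into 10 profiled clusters, Ncr1, Klrb1a and Klrb1f were again highest in 1 and the same cluster in both libraries, with an ILC1 marker ratio of 3.69, and the spread of Klrb1c with IL-15SA went from 1.70-fold to 2.59-fold. Klrb1f stood there at 315 and 385 CPM. Cycling cells differed in Klrb1f at this division. It stood at 204 and 254 CPM in the cluster with a G2 and M phase marker ratio of 7.83. In the cluster with an S phase marker ratio of 2.79 it stood at 121 and 160. A cluster too small to be profiled, with 55 and 163 cells, had an MHC class II ratio of 89.2 and an ILC1 ratio of 2.35. It held Klrb1f at 310 (243 to 390) and 316 (269 to 369) CPM. Without z-scores before the clustering there were 3 NK clusters. Ncr1, Klrb1a and Klrb1f were highest in the one with ILC1 markers, but so was Klrb1c, and the spread of Klrb1f with the combination went from 2.47-fold to 1.63-fold. That Klrb1c was highest in another cluster than the rest thus depends on the division. Its low level in cycling cells was found in all 3 but was not particular to it. Without z-scores Ncr1 and Klrb1a were also lowest in the cycling cluster, in both libraries. In the finer division the cluster with the S phase ratio of 2.79 was lowest for Klrb1c in both libraries. It was also lowest for Klrb1a with IL-15SA and for Ncr1 with the combination.

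The number of Klrb1f UMIs for each Klrb1c UMI gives the shift between the 2 genes within a cluster without use of the cluster's total. It was 1.59 (1.44 to 1.76) and 1.58 (1.48 to 1.69) in cluster 2, and 1.44 (1.34 to 1.56) and 1.51 (1.41 to 1.63) in cluster 3. In cluster 6 it was 0.912 (0.716 to 1.16) and 0.998 (0.869 to 1.15), in cluster 1 it was 0.731 (0.682 to 0.783) and 0.810 (0.766 to 0.857), and in cluster 5 it was 0.647 (0.574 to 0.728) and 0.612 (0.538 to 0.696). The ILC1-marker cluster and the cycling cluster thus had a higher quotient than the Ly49 and granzyme clusters, in both libraries. In cluster 2 this went with high Klrb1f and in cluster 3 with low Klrb1c. The value of the quotient itself also depends on how well each transcript is captured, so only its change between clusters is read.

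**Figure D3:**
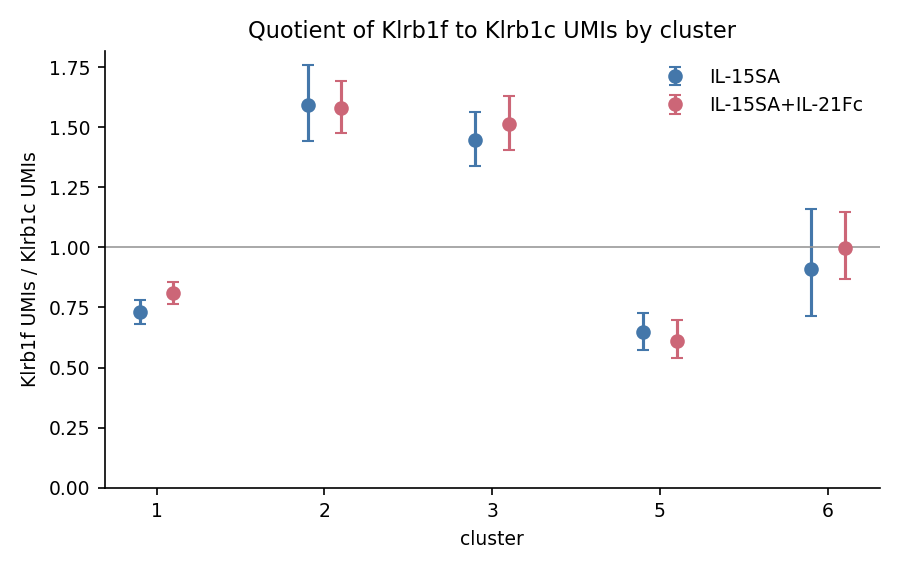
Klrb1f UMIs divided by Klrb1c UMIs in 5 NK clusters of the IL-15SA library (blue) and the combination library (red), with 95% intervals, and a line at 1. Clusters 2 and 3 lie higher than clusters 1 and 5, with cluster 6 between them, in both libraries. The line is a guide for the eye, since only the change between clusters is read.

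Across the 10 profiles of 5 clusters and 2 libraries, the log2 levels of Ncr1 and Klrb1a had a Pearson correlation of 0.90, Ncr1 and Klrb1f 0.84, Klrb1a and Klrb1f 0.77, and Klrb1c and Klrb1f 0.27. The profiles share libraries and cluster depths and are few, so these values are a description. Among 5138 genes the profiles most like that of Ncr1 were those of Itpr2 (r = 0.99), Jun and Dhx36 (0.96 each). For Klrb1a they were Parg (0.98), Prex1 (0.95) and Map3k2 (0.93), for Klrb1c Ptp4a2, Cd37 and Tcn2 (0.96 each), and for Klrb1f Samd3 and Tpst2 (0.98 each) and Tagap (0.96). With a filter at 50 CPM 2 of the 3 genes were found again for Ncr1, Klrb1c and Klrb1f and 0 of 3 for Klrb1a.

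Per cell, Ncr1 was counted with a median of 4 UMIs in both libraries, and the 3 NKR-P1 genes with a median of 0. Since depth per cell differed, each cell was thinned to 1000 UMIs, which left out 0 cells. In the NK compartment a Klrb1f UMI was then found in 15.6% of cells (14.7% to 16.4%) with IL-15SA and 20.8% (20.01% to 21.6%) with the combination, and a Klrb1c UMI in 15.6% (14.8% to 16.5%) and 20.2% (19.4% to 20.9%). For Klrb1a the shares were 6.31% (5.77% to 6.89%) and 7.58% (7.08% to 8.10%), and for Ncr1 73.0% (71.9% to 74.0%) and 76.2% (75.3% to 77.0%). Each share was higher with the combination by more than counting error. Unthinned, they were 37.9% and 41.2% for Klrb1f, 38.9% and 39.5% for Klrb1c, 18.0% and 15.9% for Klrb1a, and 94.6% and 93.3% for Ncr1, so that the direction for Klrb1a and Ncr1 turned.

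Cluster 4 was set beside the NK compartment because tumour and stroma cells should lack these genes. Its cells had a median of 1812 and 1850 UMIs. At equal depth, 44.1% and 36.1% of them held an Ncr1 UMI, 6.73% and 6.47% a Klrb1f UMI, 6.73% and 5.50% a Klrb1c UMI and 3.54% and 3.35% a Klrb1a UMI. Each share was below that of the NK compartment of the same library. As summed levels, Ncr1 stood at 553 (518 to 589) and 372 (354 to 392) CPM in cluster 4, and the 4 genes there were at 33.1% to 37.5% of their NK level with IL-15SA and at 20.9% to 29.1% with the combination. The other 10 NK markers were at 30.6% to 41.0% and 18.3% to 29.9% of theirs, so these receptor genes lay within the range of NK transcripts in general. Whether the signal in cluster 4 came from free RNA or from mixed wells was not tested, so its shares are not taken as a settled background level. Within cluster 4 the ratio of combination to IL-15SA was 0.882 (0.692 to 1.13) for Klrb1f and 0.833 (0.648 to 1.08) for Klrb1c, with intervals that include 1. For Klrb1a it was 0.930 (0.638 to 1.38), and for Ncr1 it lay below 1, at 0.674 (0.621 to 0.732).

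**Figure D4:**
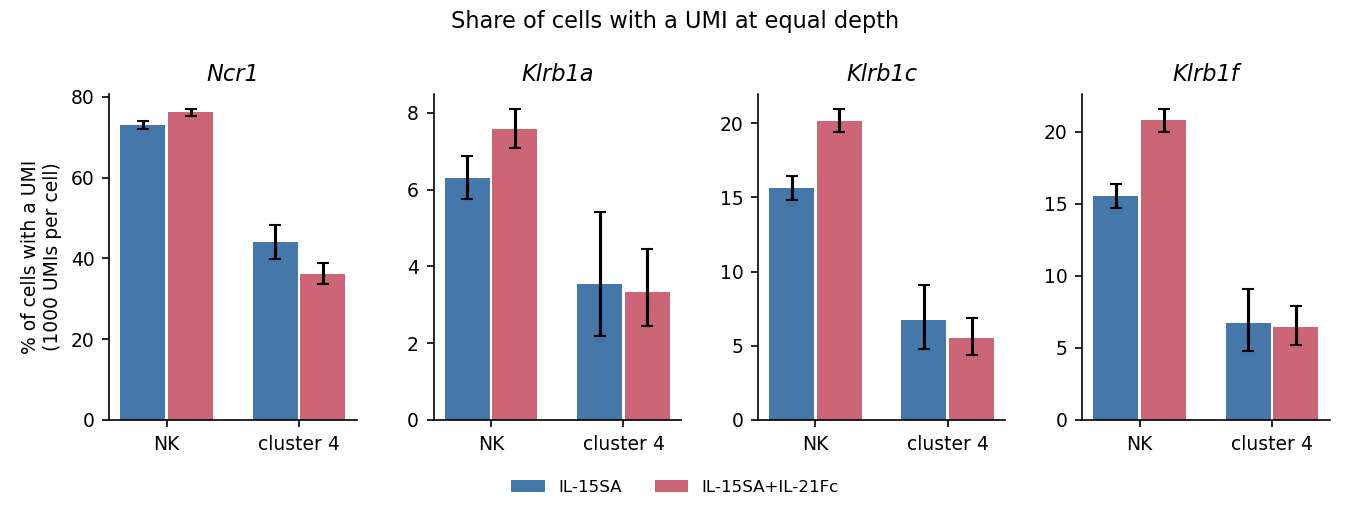
Percent of cells with at least 1 UMI of each gene after thinning to 1000 UMIs per cell, in the NK compartment (left pair of bars) and the tumour or stroma-like cluster 4 (right pair), for the IL-15SA library (blue) and the combination library (red), with exact binomial 95% intervals. In the NK compartment each red bar is higher than the blue bar, and in cluster 4 the Ncr1 bar of the combination library is lower.

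By cluster at equal depth, Klrb1f UMIs were most frequent in cluster 2, in 26.3% (23.8% to 28.9%) and 28.4% (26.7% to 30.2%) of cells, and least frequent in cluster 5, in 9.53% (7.74% to 11.6%) and 12.7% (10.4% to 15.3%). Klrb1c UMIs were least frequent in cluster 3, in 11.4% (10.02% to 13.0%) and 13.6% (12.1% to 15.1%). Of the NK compartment cells 67.1% with IL-15SA and 58.8% with the combination held no UMI of any NKR-P1 gene at this depth, 28.6% and 34.1% held 1 of the genes, 4.16% and 6.83% held 2, and 0.203% and 0.268% held 3. Klrb1c and Klrb1f were found together in 2.69% (2.33% to 3.08%) and 4.36% (3.97% to 4.77%) of cells, where independent draws at the measured shares give 2.43% and 4.19%. The observed intervals include those values, so no departure from independent detection of the pair was detectable at this depth. Unthinned, where depth differed from cell to cell, the pair was found in 16.2% (15.4% to 17.0%) and 17.4% (16.7% to 18.2%) of cells, above the 14.7% and 16.3% that independent draws give.

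Klrb1b, the gene of the inhibitory receptor, was listed in both files with 0 UMIs, where 3 UMIs over the NK compartment would have given 0.110 and 0.103 CPM. Its gene model overlaps another one. The annotated gene Gm44511 runs on the same strand from 128780285 to 128826315, covers 12610 of the 12626 bases of Klrb1b (99.9%), and joins exons of Klrb1b to the last exons of Klrb1c. It shares 599 of the 2228 exonic bases of Klrb1b and none of its last exon block of 1613 bases, which lies wholly inside the span of Gm44511. Gm44511 itself had 586 and 732 UMIs in all barcodes, 19.0 (17.4 to 20.7) and 22.6 (20.9 to 24.4) CPM of the NK compartment, in a row apart from that of Klrb1c. How reads that lie in more than 1 of these models were assigned is not known.

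The same 0 was common among genes placed in this way. Of 659 protein-coding genes that lie at least 95% inside another gene on their strand, 602 (91.4%, 88.9% to 93.4%) had 0 UMIs over both libraries, against 4523 of 17668 (25.6%, 25.0% to 26.3%) with no overlap on their strand. Of 3563 with a partial overlap, the class that holds Klrb1c, 253 (7.10%, 6.28% to 7.99%) had 0 UMIs. Il2rg, which encodes the receptor chain through which IL-15 and IL-21 signal, is wholly inside Gm20489 and also had 0 UMIs. No level of Klrb1b is read from these files, and the cause of its 0 was not tested. Klrb1c is covered by Gm44511 over 83.2% of its span but over 142 of the 1942 bases of its last exon block, and the share of its reads that was counted is unknown. Of the 50-base words in the transcripts, 9.92% of those of Klrb1a and 17.0% of those of Klrb1c also occur in another gene, while for Ncr1 and Klrb1f it is 0%, so that Klrb1a and Klrb1c are the less certain counts. With the overlapping model Gm44511 set aside, the share of Klrb1c is 5.99% and that of Klrb1a stays at 9.92%. The Klrb1 genes also differ in sequence between mouse strains, the host strain is not known here and mm10 is the build named, and the part of this in the Klrb1 levels was not tested.

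**Figure D5:**
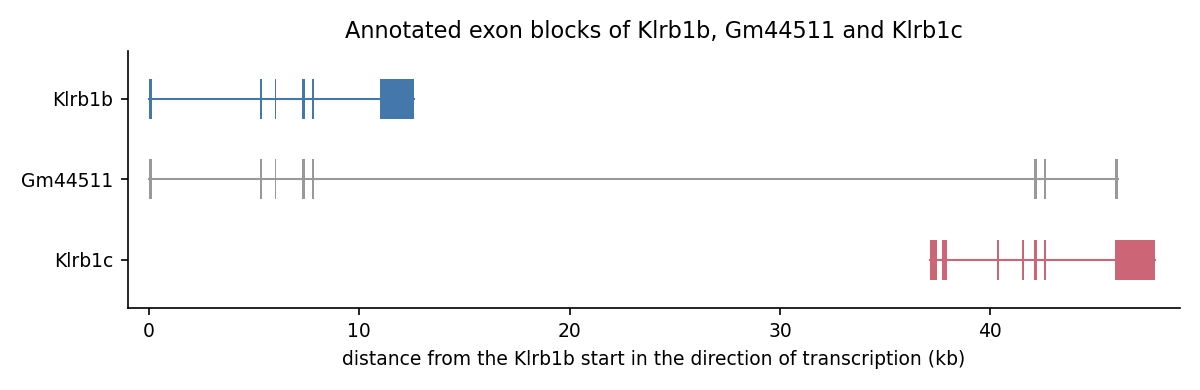
Exon blocks (boxes) and spans (lines) of Klrb1b, Gm44511 and Klrb1c in GENCODE M21, by distance in kb from the Klrb1b start in the direction of transcription. Gm44511 has boxes at the places of 5 of the 6 of Klrb1b and of the last 3 of Klrb1c, and the long last box of Klrb1b lies within its line but in none of its boxes.

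The remaining genes of the family were rare: Klrb1, also in the NK gene complex, had 48 and 75 UMIs in all barcodes and the pseudogene Klrb1-ps1 had 2 and 3. Of 8 ligand genes in the files 2 were measured at 5 CPM or more. Clec2d, the gene of the NKR-P1B ligand Clr-b, stood at 309 and 334 CPM of the NK compartment, a ratio of 1.08 (1.05 to 1.12), and Clec2i, the gene of the NKR-P1F ligand Clr-g, at 35.2 and 37.7, a ratio of 1.07 (0.983 to 1.17). Clec2d also stood at 232 and 238 in cluster 4, below its NK level, and Clec2i at 14.1 and 10.4.

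Of the 16 measured genes for adaptors, kinases and phosphatases that pass on receptor signals, 12 had a ratio above 1 and 4 below, with a median log2 ratio of 0.11, and 1 was 1.5-fold higher and 0 were 1.5-fold lower. Over all 9191 genes at the same 5 CPM these shares were 2.24% and 0.522%. Of the 9191 genes, 4590 had a ratio above 1 and 4601 below, and their median log2 ratio was -0.0004. Fcer1g, the adaptor of NKp46 and NKR-P1C, stood at 1682 and 1675 CPM, a ratio of 0.995 (0.983 to 1.01), below that of Klrb1c. Cd247, the other adaptor of NKp46, stood at a ratio of 1.05 (1.02 to 1.09), the kinase gene Lck at 1.07 (1.05 to 1.10) and the phosphatase gene Ptpn6 at 1.10 (1.04 to 1.16). The highest ratios of the list were those of the adaptor genes Lat, 1.54 (1.43 to 1.67), and Hcst, 1.27 (1.24 to 1.31). The lowest were those of Plcg2, 0.945 (0.854 to 1.05), and Ptpn11, 0.965 (0.893 to 1.04). The ratios of the listed genes, ligands and those of the next paragraph included, are for the whole NK compartment. They were not taken in cells matched on UMIs per cell, where the log2 ratio of Klrb1a went from 0.19 to -0.07. How far they depend on depth was not tested.

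Among 23 measured genes of other NK receptors, 18 had a ratio above 1 and 5 below, with a median log2 ratio of 0.18. Of all 9191 genes at 5 CPM, 4590 were above 1 and 4601 below. Of the 23, 5 passed a log2 ratio of 0.32 upward and 0 downward, against 8.65% and 4.37% of all genes at 5 CPM. At 1.5-fold 1 of the 23 passed upward and 0 downward, against 2.24% and 0.522% of all genes. Cd160, a receptor for HVEM, was highest with a ratio of 1.58 (1.51 to 1.67), followed by Slamf6, a receptor of the SLAM family, at 1.51 (1.19 to 1.91) and the NKG2 family gene Klrc3 at 1.46 (1.24 to 1.73). With 1 CPM added, as in the rule for named genes, Klrc3 ranked above Slamf6. The lowest were Itga1, the ILC1-associated integrin chain, at 0.862 (0.785 to 0.947), and Il2rb, the shared receptor chain for IL-2 and IL-15, at 0.915 (0.899 to 0.932). Cd160 also had its highest level in cluster 2, at 282 and 326 CPM, against 56.5 and 85.6 in cluster 1. Of 13 measured transcription factors of NK cells and ILC1, 9 were above 1 and 4 below, with a median log2 ratio of 0.19. At a log2 ratio of 0.32, 4 of the 13 passed upward and 0 downward, against 8.65% and 4.37% of all genes. At 1.5-fold 1 passed upward and 0 downward, against 2.24% and 0.522%. Tox had a ratio of 1.85 (1.61 to 2.12) and Klf2 one of 1.49 (1.45 to 1.52), while Id2 stood at 0.839 (0.830 to 0.849) and Prdm1 at 0.844 (0.778 to 0.917). Klf2 stood at 1272 and 1260 CPM in cluster 4, above its NK level of 536 and 796. The part of transcripts from such cells in the NK value of Klf2 was not tested. Runx3, a factor whose family's core letters are marked in the upstream sequences, was added after its values were seen. It had a ratio of 1.02 (0.966 to 1.07) and was at 105 and 101 CPM in cluster 2 and 91.5 and 94.8 in cluster 3. Runx1, of the same family and likewise added later, stood at 84.3 and 102 CPM of the NK compartment. Its ratio was 1.21 (1.15 to 1.28).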

How the data were processed

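The matrices hold UMI counts for each gene and barcode from GEXSCOPE microwell libraries, deposited without normalization. The submitters' processing notes name cutadapt, featureCounts, Seurat (version 4), Scanpy and mm10 with no roles. For aligner, annotation, strand setting and cell calling, nothing is stated by the sources at hand. Groups follow the sample titles, although the title of the series has IL-21 as the single agent.

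Cells needed 200 genes and no more than 20% mitochondrial UMIs (0 and 5 removed). Scrublet's own threshold marked 2 and 1 cells and had thus not worked, and the 5% of cells with the highest score (419 and 622) were left out. The others were scaled to 10000 UMIs, logged and clustered (scanpy 1.11.5, leidenalg 0.10.2) on z-scores of 2000 variable genes, with 30 components, 15 neighbours and resolution 0.5. Z-scores were kept after clusterings with and without them had been seen. A cluster counted as non-NK if 3 or more markers of another class reached 5 times their median over clusters while NK markers, without Ncr1 and Klrb1c, were under 0.67.

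UMIs were summed by library and cluster. Intervals are exact Poisson (levels), conditional binomial (ratios) or Clopper-Pearson (shares). For counts of genes past a fold, log2 medians of lists and folds against other clusters 1 CPM was added. All genes at 20 CPM in 1 library entered the counts, and list members at 5 CPM. Ratio intervals and thinning were tested on simulated data. The genes, lists and markers were chosen with earlier results of these data known. By rule the text names the 2 highest and 2 lowest ratios of a list and a fixed set of genes, and Runx3 and Runx1 were added. The result of 1 marker list is not reported here.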

Additional observations from a re-analysis of the deposited data

How the results depend on the processing

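No paired analysis was possible because only 1 library stood for each treatment. With 1 library per group, depth limits only the counting error, and no interval here covers animals or tumours. Klrb1c and Klrb1f kept a ratio above 1 under each alternative tried, while Ncr1 and Klrb1a did not, and the cause was not tested. Log2 ratios of the NK compartment were 0.09 for Ncr1, 0.19 for Klrb1a, 0.40 for Klrb1c and 0.52 for Klrb1f. Over all barcodes Ncr1 went to -0.00263, Klrb1c to 0.30 and Klrb1f to 0.41. In cells matched on UMIs per cell Ncr1 went to 0.00717, Klrb1a to -0.0739, Klrb1c to 0.21 and Klrb1f to 0.40. With clusters weighted equally Ncr1 went to 0.0398, Klrb1a to -0.0320 and Klrb1f to 0.42. Without cluster 3, an alternative added after seeing the data, Ncr1 went to 0.12 and Klrb1f to 0.57. Clustering without z-scores, leaving out cluster 2 and leaving out barcodes found in both libraries were also added after seeing the data and kept each log2 ratio within its interval, as did keeping doublets, finer clusters, clustering with the receptor genes and a mean over cells.

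For shares of cells with a UMI, the difference of the combination library from the IL-15SA library was 3.21 percentage points for Ncr1, 1.27 for Klrb1a, 4.55 for Klrb1c and 5.22 for Klrb1f at 1000 UMIs. At 500 UMIs it was 0.278 for Klrb1a, 3.06 for Klrb1c and 3.86 for Klrb1f. Unthinned it was -1.29 for Ncr1, -2.09 for Klrb1a, 0.560 for Klrb1c and 3.28 for Klrb1f. Finer clusters moved the spread over clusters to 1.53-fold (IL-15SA) and 1.45-fold (combination) for Ncr1, to 3.02-fold (IL-15SA) for Klrb1a, to 2.59-fold and 2.17-fold for Klrb1c and to 3.21-fold and 3.37-fold for Klrb1f. Without z-scores it was 1.30-fold (IL-15SA) for Ncr1, 1.70-fold (combination) for Klrb1c, and 2.04-fold and 1.63-fold for Klrb1f. A lower filter of 5 CPM raised the share of genes at least 1.5-fold higher from 1.46% to 2.24%.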
